A study of Mus musculus with 34 samples.

Results

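The 9 genes described here mark cytotoxic lymphocytes, the CD8+ T cells and natural killer (NK) cells that kill other cells on contact. They were chosen by name, and their Ensembl gene IDs were matched to symbols with the version suffix dropped. All 9 were found in both deposited tables, among 32098 genes in each. Their RNA was read in male C57BL/6J mice, in the cells of visceral white fat other than adipocytes, named the stromal vascular fraction (SVF) and pelleted after collagenase digestion and lysis of erythrocytes. From 6 weeks of age the animals ate high fat chow (HFD) or control chow (CHOW), which came from either of a pair of control diets, and the labels do not say which mouse had which. Libraries were made after 8 weeks of diet (4 CHOW and 6 HFD, mice 14 weeks old), after 20 weeks (5 CHOW and 6 HFD, 26 weeks old) and after 34 weeks (7 CHOW and 6 HFD, 40 weeks old), 34 in all. The mice carried no transgene that the labels name, and all were fasted for some hours before tissue was taken. The SVF was not sorted, so each library mixes all cells of the pellet.

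Cytotoxic lymphocytes carry granules that hold perforin, which opens pores in the target cell membrane, and granzymes, serine proteases that enter through them. Prf1 encodes perforin, Gzma, Gzmb and Gzmk encode granzymes A, B and K, and Nkg7 encodes a membrane protein of the granules. Cd8a and Cd8b1 encode the chains of the CD8 co-receptor, which binds MHC class I beside the T cell receptor. Ifng encodes interferon gamma, the main cytokine that these cells secrete, and Pdcd1 encodes PD-1, an inhibitory receptor that activated T cells put on their surface. In obese visceral fat, CD8+ T cells and NK cells are known as cells that accumulate early and act on macrophages. Granzyme B is not restricted to lymphocytes, since mouse mast cells can make it too.

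The 3 granzyme genes stand in 2 places in the genome (GRCm38). Gzma (ENSMUSG00000023132, chr13:113093825-113100981, minus strand) and Gzmk (ENSMUSG00000042385, chr13:113171608-113225908, minus strand) are neighbors, with 70.6 kb between them. Gzmb (ENSMUSG00000015437, chr14:56258838-56262260, minus strand) lies in another granzyme cluster. Their promoters are shown because these genes moved in different directions over time. The stretches are the 150 bases before the RefSeq start (GRCm38.p6), written 5' to 3' on the gene's strand, and capitals mark matches on either strand to a RUNX motif (TGTGGT), an AP-1 motif (TGANTCA) and a T-box motif (GGTGTGA), the binding sequences of transcription factor families that act in T cells.
Gzma, chr13:113100982-113101131, minus strand: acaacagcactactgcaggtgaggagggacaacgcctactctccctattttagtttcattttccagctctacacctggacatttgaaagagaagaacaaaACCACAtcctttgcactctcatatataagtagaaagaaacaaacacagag
Gzmb, chr14:56262335-56262484, minus strand: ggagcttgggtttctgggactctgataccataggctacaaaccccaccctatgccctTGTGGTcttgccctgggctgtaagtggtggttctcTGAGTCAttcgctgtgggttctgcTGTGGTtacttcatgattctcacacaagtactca
Gzmk, chr13:113180966-113181115, minus strand: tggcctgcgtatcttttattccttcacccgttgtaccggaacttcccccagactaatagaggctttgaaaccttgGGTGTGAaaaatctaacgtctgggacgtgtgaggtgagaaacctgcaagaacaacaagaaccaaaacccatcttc

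Gzmb held 2 RUNX matches, which began 93 and 34 bases before the start, and 1 AP-1 match at 58 bases, while Gzma held 1 RUNX match at 50 bases and Gzmk held 1 T-box match at 75 bases. Of the 8 members with a promoter in the RefSeq table, 4 had a RUNX match, 1 an AP-1 match and 2 a T-box match within 250 bases before the start. Among all 32851 promoters of the table the shares were 14.05% for RUNX, 6.75% for AP-1 and 3.33% for T-box. The motifs do not overlap in these stretches. A match is a description of the letters and not of binding. The RefSeq start of Gzmb lies 74 bases upstream of the gencode M21 gene limit, that of Gzma coincides with it, and that of Gzmk lies 44943 bases inside the gencode gene, which includes a longer transcript.

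The remaining members lie on other chromosomes (GRCm38). Cd8b1 (ENSMUSG00000053044, chr6:71322788-71337494) and Cd8a (ENSMUSG00000053977, chr6:71373427-71379173) are neighbors on the plus strand, 35.9 kb apart. Prf1 (ENSMUSG00000037202, chr10:61297833-61304680) and Ifng (ENSMUSG00000055170, chr10:118441046-118445892) share chromosome 10 and Nkg7 (ENSMUSG00000004612, chr7:43437073-43438249) is on chromosome 7, all on the plus strand. Pdcd1 (ENSMUSG00000026285, chr1:94038305-94052553) is on the minus strand.

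Values are TPM, a length-corrected share of each library's transcripts, so levels can be compared between genes within a table. TPM keeps no read depth, and depth per library is unknown. From 13200 to 17213 genes reached 1 TPM per library. T cell and NK cell markers were present throughout: Cd3e, a T cell receptor chain, was at 0.576 TPM or more and Klrb1c, an NK cell receptor, at 0.648 TPM or more in every library. Some libraries stood apart by RNA of other tissues. HFD 8 week replicate 3 held seminal vesicle genes at a sum of 120024 TPM, and CHOW 34 week replicates 5, 6 and 7 held adipocyte genes at 4312, 19567 and 5617 TPM. HFD 8 week replicate 6 held hemoglobin genes at 267366 TPM. Germ cell genes were highest in HFD libraries, at 12111 TPM in 20 week replicate 5, 2327 and 2805 TPM in 20 week replicates 3 and 4, 4956 and 5357 TPM in 34 week replicates 1 and 2, and 1110 TPM in 8 week replicate 4, while no CHOW library passed 536 TPM. HFD 8 week replicates 3 and 6, HFD 20 week replicate 5 and CHOW 34 week replicates 5 to 7 were left out, within each table, as the libraries that stood apart, and the 6 HFD libraries over 1000 TPM of germ cell RNA were left out in another fit, chosen after seeing the data.

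Of the 9 members, 5 passed the test in at least 1 of 6 comparisons and 4 (Prf1, Nkg7, Ifng and Pdcd1) passed in none. The test was limma on log2(TPM + 1), with an adjusted p under 0.05 (Benjamini-Hochberg over all genes tested) as the threshold. At 8 weeks, HFD against CHOW, no member passed limma, where 4 of 16808 genes did (0.0238%), and 0 members had an unadjusted p under 0.05, against 9.7% of all genes. All 9 overlapped between the diets there, while 2.11% of all genes did not. At 20 weeks Gzmb alone passed, where 14.3% of all genes did and 9.32% were higher on HFD, and 5 members had an unadjusted p under 0.05, against 30.5% of all genes. At 34 weeks no member passed limma, where 0.243% of 13982 genes did, and 3 members had an unadjusted p under 0.05, against 13.2% of all genes. From 8 to 20 weeks on HFD 5 members passed, 4 higher and 1 lower, and these were also the 5 with an unadjusted p under 0.05. Of all genes 8.78% passed in that comparison (6.12% higher and 2.65% lower) and 27.2% had an unadjusted p under 0.05. Over the same time on CHOW no member passed limma, against 0.613% of all genes (0.458% higher and 0.155% lower), and 2 had an unadjusted p under 0.05, against 12.5%. The interaction of diet with time compares the effects of HFD at 8 and 20 weeks. Gzmb alone passed it, against 0.297% of all genes (0.161% upward and 0.137% downward), and 4 members had an unadjusted p under 0.05, against 13.8%. Since the pellet is measured in bulk, fewer cells of a type and less RNA per cell cannot be told apart. Without the libraries that stood apart at 8 and 20 weeks, Gzma, Gzmb and Gzmk passed over time on HFD (3 members), Gzmb and Gzmk at 20 weeks, and Gzmb in the interaction. Without the 6 libraries rich in germ cell RNA, Gzma, Gzmb and Gzmk passed over time on HFD, Gzmb (1.66, limma adjusted p = 0.000363) and Gzma at 20 weeks, and Gzmb in the interaction. The labels do not say whether libraries of a group came from separate mice, so p-values measure the spread between these libraries.

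**Figure D1:**
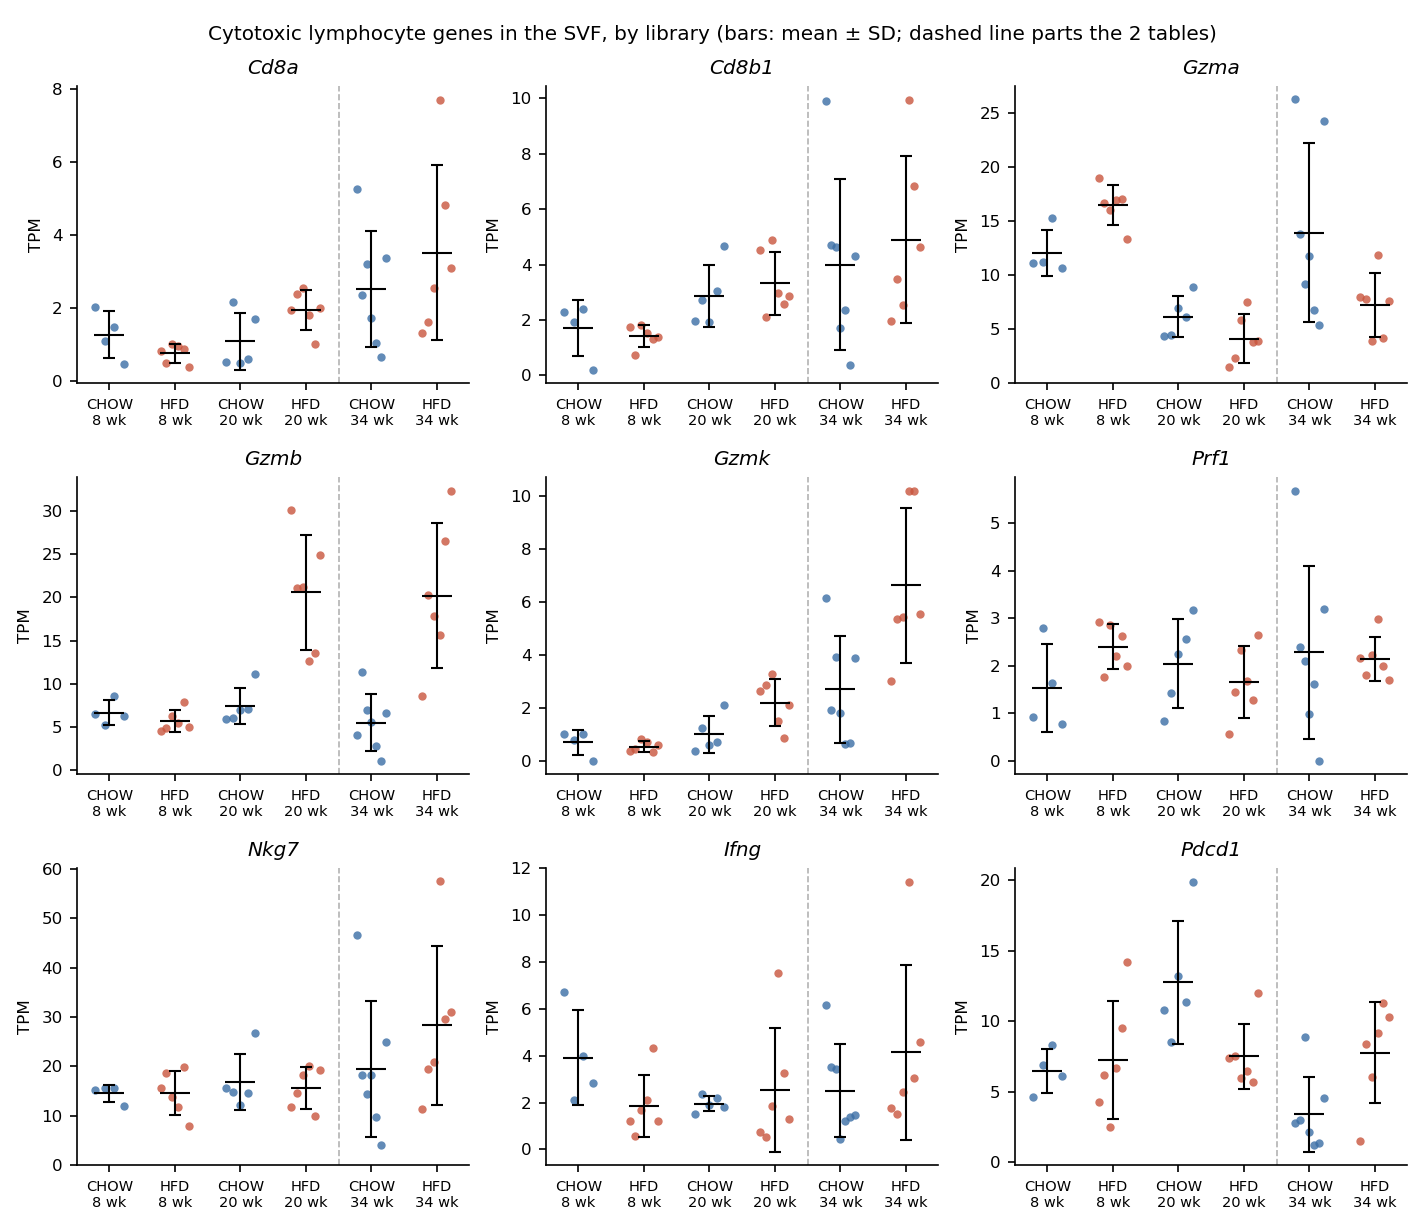
TPM of each of the 9 cytotoxic lymphocyte genes in every library, by diet (CHOW blue, HFD red) and weeks on diet; points are libraries, horizontal bars the group mean and vertical bars ± 1 SD, and the dashed line parts the 2 tables. Gzmb at 20 weeks runs from 12.7 to 30.1 TPM on HFD and from 5.97 to 11.1 TPM on CHOW.

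Gzmb, the granzyme that cleaves caspases in the target cell, rose on HFD between 8 and 20 weeks and was higher on HFD than on CHOW at 20 weeks. The CHOW libraries of 20 weeks were at 5.97, 6.07, 6.93, 7.10 and 11.1 TPM. The HFD libraries of 20 weeks ran from 12.7 to 30.1 TPM with a median of 21.1. The groups did not overlap, which was so for 9.19% of all genes tested. Mean levels were 20.6 ± 6.65 TPM on HFD (SD, n = 6) and 7.44 ± 2.12 TPM on CHOW (SD, n = 5), a ratio of means of 2.77, and the log2 fold change was 1.33 (SE 0.21, limma adjusted p = 0.000328). Gzmb passed at 20 weeks in each of the 11 fits that left out a library, with adjusted p from 0.000187 to 0.00161.

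At 8 weeks the Gzmb groups overlapped. CHOW was at 5.29, 6.24, 6.51 and 8.65 TPM, and HFD ran from 4.59 to 7.94 TPM with a median of 5.26. The log2 fold change of HFD against CHOW was -0.20 (SE 0.22, limma adjusted p = 0.844). From 8 to 20 weeks on HFD the level rose by 1.65 on the log2 scale (SE 0.20, limma adjusted p = 2.06e-05), and these groups did not overlap, as for 4.17% of all genes. On CHOW the same step was 0.12 (SE 0.23, limma adjusted p = 0.897). The interaction was 1.52 (SE 0.30, limma adjusted p = 0.0308). That call was lost in 12 of the 21 fits that left out 1 library, with adjusted p up to 0.0859, although the sign held in all of them, and it was also lost under 4 of the other alternatives.

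At 34 weeks Gzmb was again high on HFD, with a lowest level of 8.55 TPM, a median of 19.1 and a highest of 32.4. The CHOW libraries ran from 1.14 to 11.3 TPM with a median of 5.56. HFD replicate 1, the lowest, was the one HFD library within the CHOW range, and 0.937% of all genes had no overlap. In Gzmb the ratio of means was 3.68. The log2 fold change was 1.78 (SE 0.37) and did not pass (limma adjusted p = 0.0749). It passed when CHOW replicate 2 or HFD replicate 1, the highest and the lowest library of their groups, was left out (lowest limma adjusted p 0.0310) or libraries were weighted by quality (limma adjusted p = 0.00989), and not without the CHOW libraries rich in adipocyte RNA (1.38, limma adjusted p = 0.213).

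Mast cell genes were higher in the comparisons in which Gzmb was. A list of 10 mast cell markers, added after values had been seen, had 8 genes higher and 0 lower on HFD at 20 weeks, with a median log2 fold change of 1.43 beside 0.0752 for all genes. On HFD from 8 to 20 weeks 9 of the 10 rose, with a median of 3.21. The proteases Tpsb2 (a tryptase) and Mcpt4 (a chymase) rose by 3.32 (SE 0.28, limma adjusted p = 6.27e-07) and 3.23 (SE 0.32, limma adjusted p = 5.20e-06) over that time.

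The summed level of the 10 mast cell genes ran from 684 to 3055 TPM on HFD and from 570 to 844 TPM on CHOW at 20 weeks. No marker of the list was at 0 in all libraries. HFD 20 week replicates 4 and 5, the lowest in Gzmb at 12.7 and 13.6 TPM, were also the lowest in the mast cell sum at 684 and 1141 TPM. At 34 weeks the sum ran from 852 to 2968 TPM on HFD and from 123 to 1185 TPM on CHOW, and HFD replicate 1 was the lowest in both measures, while HFD replicate 4 had the highest mast cell sum and the second lowest Gzmb, 15.7 TPM. At 8 weeks the sum was 154 to 327 TPM on HFD and 358 to 654 TPM on CHOW, without overlap, while Gzmb overlapped. The part of mast cells in the Gzmb result was not tested.

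Gzmb resembles the granzymes C to G of its cluster, and reads that fit several of them are divided by the quantification. Gzmd, Gzmf and Gzmg were listed at 0 in every library, Gzmc did not exceed 1.28 TPM and Gzme did not exceed 0.781 TPM.

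Gzma, a granzyme of NK cells and CD8+ T cells with tryptase activity, moved opposite to Gzmb over time on HFD. At 8 weeks it was at 13.3 to 19 TPM on HFD with a median of 16.8, and at 20 weeks at 1.46 to 7.45 TPM with a median of 3.81. These groups did not overlap. The level fell by 1.89 on the log2 scale (SE 0.23, limma adjusted p = 3.16e-05), a ratio of means of 0.25. Every one of the 12 fits that left out a library kept this call.

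On CHOW the Gzma libraries were at 10.7, 11.1, 11.2 and 15.2 TPM at 8 weeks and at 4.38, 4.41, 6.07, 6.95 and 8.91 TPM at 20 weeks. The groups did not overlap, which was so for 6.28% of all genes, and the log2 fold change was -0.90 (SE 0.27) without passing the test (limma adjusted p = 0.138). The interaction of Gzma was -0.99 (SE 0.36, limma adjusted p = 0.283), so a difference between the diets in this step was not shown.

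Between diets, Gzma on HFD lay above CHOW at 8 weeks, with a log2 fold change of 0.43 (SE 0.26, limma adjusted p = 0.630), and below it at the later times. At 20 weeks the log2 fold change was -0.56 (SE 0.24, limma adjusted p = 0.124). It passed in 1 of 11 fits that left out a library, without HFD replicate 4 (limma adjusted p = 0.0443), and also under quantile normalization and with quality weights (limma adjusted p = 0.0420 and 0.0218). Without the libraries rich in germ cell RNA it was -1.03 and passed (limma adjusted p = 0.0154). At 34 weeks the CHOW libraries ran from 5.37 to 26.2 TPM with a median of 11.7 and the HFD libraries from 3.85 to 11.8 TPM with a median of 7.67, and the log2 fold change was -0.75 (SE 0.35, limma adjusted p = 0.377).

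**Figure D2:**
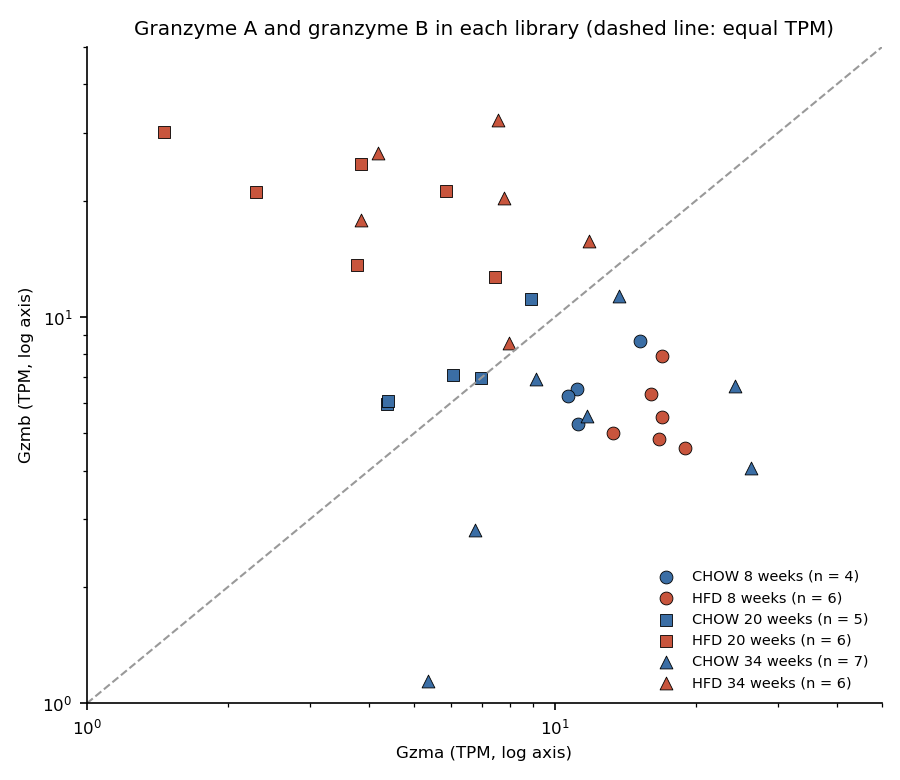
Gzma against Gzmb in each library (TPM, both axes logarithmic), with diet by color (CHOW blue, HFD red) and weeks on diet by marker shape; the dashed line is equal TPM. Gzmb lies above Gzma in 6 of 6 HFD libraries at 20 and at 34 weeks and in 0 of 6 at 8 weeks.

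Since TPM corrects for length, both granzymes can be set side by side within a library. Gzmb was above Gzma in 0 of 4 CHOW and 0 of 6 HFD libraries at 8 weeks. At 20 weeks it was above in 4 of 5 CHOW and 6 of 6 HFD libraries, and at 34 weeks in 0 of 7 CHOW and 6 of 6 HFD libraries. This pair was chosen after its values had been seen, so the order is a description and has no test. The log2 ratio of (Gzmb + 1) to (Gzma + 1) was 2.14 ± 1.03 on HFD (SD, n = 6) and 0.25 ± 0.16 on CHOW (SD, n = 5) at 20 weeks. At 34 weeks it was 1.35 ± 0.94 on HFD (SD, n = 6) and -1.19 ± 0.78 on CHOW (SD, n = 7), and at 8 weeks it was -1.40 ± 0.30 on HFD (SD, n = 6) and -0.77 ± 0.13 on CHOW (SD, n = 4). The ranges of the diets did not overlap at any of the 3 times, and the HFD libraries were the lower group at 8 weeks and the higher group at 20 and 34 weeks. How many other gene pairs part the diets in this way was not counted. At 8 and 34 weeks each of these genes alone overlapped between the diets.

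Gzmk, a granzyme of memory CD8+ T cells, was the lowest of the 3 granzymes by mean in each of the 6 groups. On HFD it ran from 0.328 to 0.802 TPM at 8 weeks with a median of 0.502, and from 0.849 to 3.27 TPM at 20 weeks with a median of 2.35. These groups did not overlap, and the level rose by 1.02 on the log2 scale (SE 0.24, limma adjusted p = 0.0115), a call kept in all 12 fits that left out a library and lost with the adipocyte covariate (0.76, limma adjusted p = 0.319). On CHOW it was at 0 (replicate 4), 0.770, 0.989 and 1.02 TPM at 8 weeks and at 0.362, 0.575, 0.703, 1.24 and 2.08 TPM at 20 weeks, a log2 fold change of 0.22 (SE 0.28, limma adjusted p = 0.825).

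HFD lay above CHOW in Gzmk at 20 weeks by 0.69 (SE 0.25) on the log2 scale, which did not pass (limma adjusted p = 0.0724). Without HFD 20 week replicate 5, which held germ cell RNA, it was 0.83 and passed (limma adjusted p = 0.0322), as it did without CHOW replicate 5. It did not pass without all the libraries rich in germ cell RNA. At 34 weeks HFD ran from 3.02 to 10.2 TPM with a median of 5.47 and CHOW from 0.629 to 6.13 TPM with a median of 1.89. Those groups overlapped, and the log2 fold change was 1.14 (SE 0.36, limma adjusted p = 0.232).

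The co-receptor chains rose together on HFD between 8 and 20 weeks, from low levels and just past the threshold. Cd8a ran from 0.391 to 1.03 TPM at 8 weeks (median 0.862) and from 1.01 to 2.55 TPM at 20 weeks (median 1.98), with the lowest library of 20 weeks (replicate 5) inside the earlier range. Its log2 fold change was 0.73 (SE 0.22, limma adjusted p = 0.0468). Cd8b1 ran from 0.725 to 1.80 TPM at 8 weeks (median 1.46) and from 2.09 to 4.90 TPM at 20 weeks (median 2.91), without overlap, and its log2 fold change was 0.81 (SE 0.25, limma adjusted p = 0.0441). Leaving out 1 library kept the call of Cd8a in 3 of 12 fits (adjusted p up to 0.101) and that of Cd8b1 in 4 of 12 (adjusted p up to 0.0935). Both calls were also lost with a pseudocount of 0.1 TPM, with no filter on low values, under median-ratio or quantile scaling, with an adipocyte score as covariate, without the libraries that stood apart and without those rich in germ cell RNA (0.86 and 0.77, limma adjusted p = 0.105 and 0.209).

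On CHOW, Cd8a was at 0.486, 1.11, 1.48 and 2.04 TPM at 8 weeks and at 0.503, 0.524, 0.617, 1.71 and 2.16 TPM at 20 weeks, where 3 libraries were low and 2 (replicates 5 and 2) lay inside the HFD range. The step on CHOW was -0.14 for Cd8a (SE 0.26, limma adjusted p = 0.895) and 0.58 for Cd8b1 (SE 0.29, limma adjusted p = 0.409). The interaction was 0.87 for Cd8a (SE 0.34, limma adjusted p = 0.309) and 0.23 for Cd8b1 (SE 0.38, limma adjusted p = 0.798). A difference between the diets in this step was thus not shown for either chain. HFD against CHOW at 20 weeks was 0.54 for Cd8a (SE 0.23, limma adjusted p = 0.123) and 0.16 for Cd8b1 (SE 0.26, limma adjusted p = 0.713). Without CHOW 20 week replicate 2 the Cd8a difference was 0.71 and passed (limma adjusted p = 0.0468). At 34 weeks both diets spread widely, with Cd8a from 0.679 to 5.26 TPM on CHOW and from 1.31 to 7.71 TPM on HFD, and Cd8b1 from 0.365 to 9.91 TPM on CHOW and from 1.97 to 9.96 TPM on HFD. Neither passed there, with log2 fold changes of 0.33 (SE 0.35) for Cd8a and 0.34 (SE 0.43) for Cd8b1 and limma adjusted p of 0.688 and 0.737.

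Members were also set against other T cell genes of the same library, as log2 ratios of (TPM + 1). Through the added 1 TPM, ratios of genes at low levels still depend on how much other RNA the library holds. Of 15 ratios of members to Cd3e (all T cells) or Cd4 (helper and regulatory T cells), tested between the diets at each time, none passed after adjustment. The largest difference was in Cd8a over Cd4 at 20 weeks. The log2 ratio was -0.42 ± 0.27 on HFD (SD, n = 6) and -1.60 ± 0.52 on CHOW (SD, n = 5), a difference of 1.18 (exact permutation test, two-sided, p = 0.00433, adjusted p = 0.0649). That p is the smallest this test can give with 6 and 5 libraries. A lone ratio at 20 weeks, or at 8 weeks with still fewer libraries, therefore could not pass, and the lack of calls there decides nothing. Cd4 itself was lower on HFD at 20 weeks by 0.64 (SE 0.19, limma adjusted p = 0.0308), a call kept in 6 of 11 fits without 1 library and lost with no filter and with the adipocyte covariate. Cd8a over Cd3e was higher on HFD by 0.65 (exact permutation p = 0.0346, adjusted p = 0.173). Without CHOW 20 week replicate 2, 3 of the 15 ratios passed, and without any other library none did. These 3 shared an adjusted p of 0.0476 (exact permutation test), again set by the smallest p possible.

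Prf1, Nkg7 and Ifng did not pass in any comparison. Prf1 group means ran from 1.53 to 2.39 TPM. Its lowest value, 0 TPM, was in CHOW 34 week replicate 6, the library with the most adipocyte RNA, and its highest was 5.69 TPM in CHOW 34 week replicate 1. The 20 week difference between diets in Prf1 was -0.19 (95% confidence interval -0.71 to 0.33, limma adjusted p = 0.656).

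Nkg7 was among the most abundant members, at group means of 14.6 to 16.8 TPM at 8 and 20 weeks. At 34 weeks it was at 19.4 ± 13.7 TPM on CHOW (SD, n = 7) and 28.3 ± 16 TPM on HFD (SD, n = 6), with ranges of 4.01 to 46.6 and 11.3 to 57.5 TPM that overlapped. Its log2 fold change by diet was -0.04 (SE 0.24) at 8 weeks, -0.09 (SE 0.22) at 20 weeks and 0.64 (SE 0.45) at 34 weeks, with limma adjusted p of 0.992, 0.826 and 0.546.

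Ifng varied widely within groups. HFD 20 week libraries ran from 0.523 to 7.53 TPM with a median of 1.59, while CHOW 20 week libraries were at 1.5, 1.83, 1.91, 2.20 and 2.37 TPM. The log2 fold change of Ifng at 20 weeks was -0.0019 (95% confidence interval -0.77 to 0.77, limma adjusted p = 0.998). At 8 weeks it was -0.81 (SE 0.39, limma adjusted p = 0.523), with CHOW at 2.12, 2.82, 3.97 and 6.73 TPM and HFD from 0.583 to 4.32 TPM. At 34 weeks it was 0.50 (SE 0.41, limma adjusted p = 0.601).

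Pdcd1 differed in sign between the later times without passing at either. At 20 weeks CHOW was at 8.49, 10.8, 11.4, 13.2 and 19.9 TPM and HFD ran from 5.64 to 12.0 TPM with a median of 6.92, where only HFD replicate 6 lay inside the CHOW range. The log2 fold change was -0.68 (SE 0.29, limma adjusted p = 0.116). At 34 weeks HFD ran from 1.47 to 11.3 TPM with a median of 8.74 and CHOW from 1.18 to 8.84 TPM with a median of 2.78, a log2 fold change of 1.01 (SE 0.41, limma adjusted p = 0.314). Whether these effects differ was not tested, since the tables were made apart. On CHOW the 8 week libraries of Pdcd1 (4.6, 6.07, 6.87 and 8.33 TPM) all lay under the 20 week ones, with a log2 fold change of 0.85 (SE 0.32) that did not pass (limma adjusted p = 0.255).

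**Figure D3:**
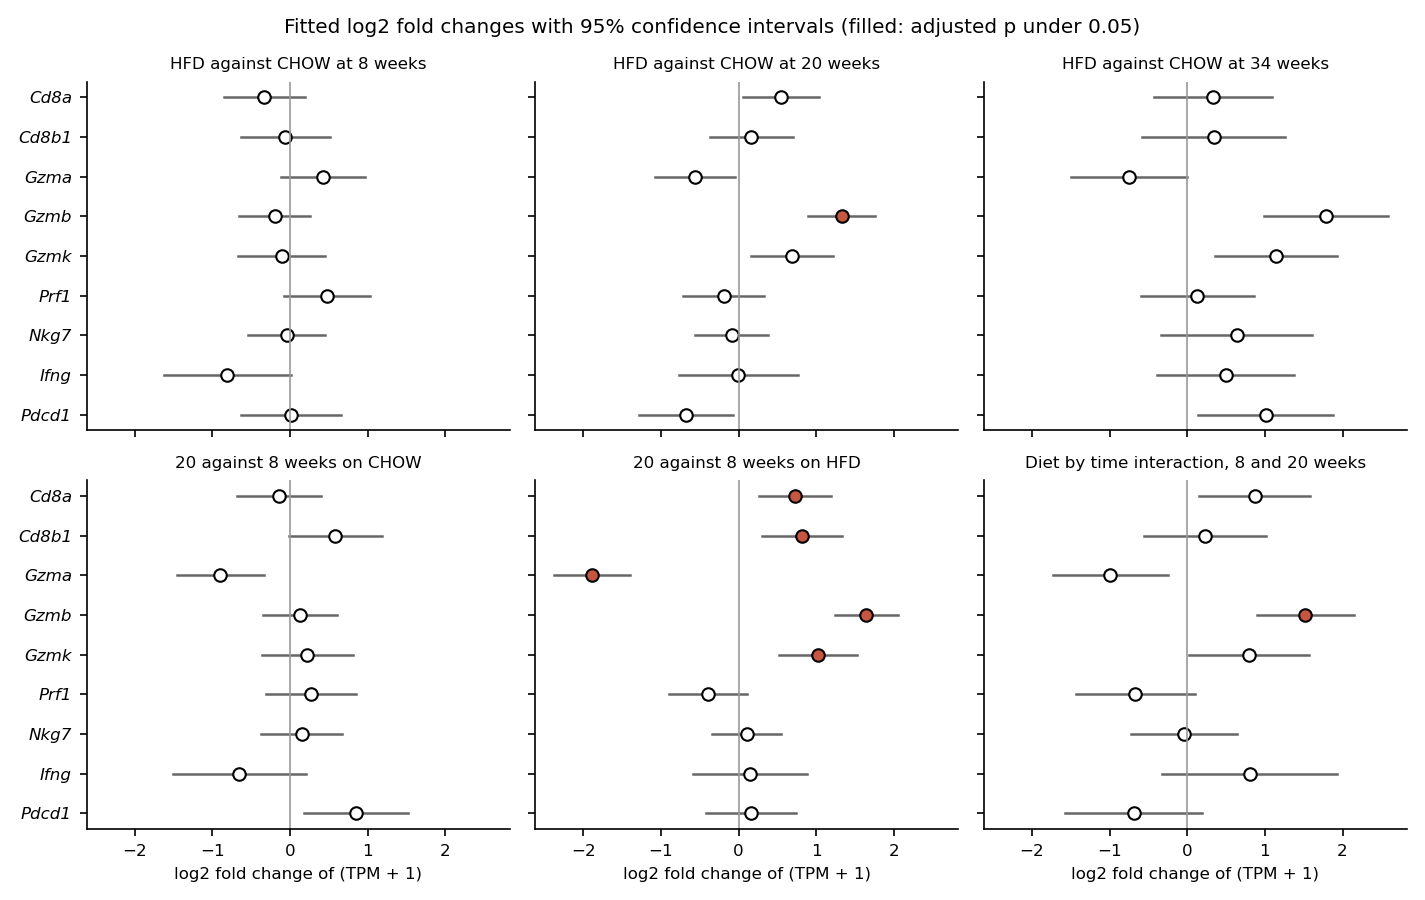
Fitted log2 fold changes of (TPM + 1) for the 9 genes in the 6 comparisons; points are estimates, lines 95% confidence intervals, and filled points have an adjusted p under 0.05 (limma). Filled points are Gzmb at 20 weeks, in the interaction and over time on HFD, and Gzma, Gzmk, Cd8a and Cd8b1 over time on HFD.

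Over the 9 members as a list, the median log2 fold change of HFD against CHOW was -0.06 at 8 weeks (all genes -0.08), -0.0019 at 20 weeks (all genes 0.08) and 0.50 at 34 weeks (all genes 0.10). At 34 weeks 8 of the 9 lay above 0, all but Gzma, and none passed. There the leukocyte marker Ptprc was at 0.48. The T cell receptor list had a median of 0.66 and the NK cell receptors one of -0.19. Of the 34 week libraries, CHOW replicates 5 and 6, rich in adipocyte RNA, had the lowest member sums, while CHOW replicate 7, also rich in it, was at 76.7 TPM. Without these CHOW libraries Cd8b1 and Prf1 lay below 0. Whether the members moved apart from other leukocyte genes was not tested. The median from 8 to 20 weeks was 0.15 on CHOW (all genes -0.09) and 0.16 on HFD (all genes 0.09). The list did not move as 1 block, since its members were called in opposite directions on HFD over time.

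Members were then compared between libraries of the same group, with group means removed from log2(TPM + 1). At 8 and 20 weeks (21 libraries) 31 of the 36 pairs had a positive Pearson r, with a median of 0.232 and a range of -0.263 to 0.823. At 34 weeks (13 libraries) 36 of 36 were positive, with a median of 0.655 and a range of 0.183 to 0.933. The adjusted p of r over both tables was under 0.05 for 4 pairs in the first table and 16 in the second (permutation within groups), and the 4 were among the 16. By rho as well as r, 4 and 12 passed. Unless rho is named, the adjusted p given beside a pair is that of r. All pairs share their libraries and thus the content of lymphocyte RNA in each.

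**Figure D4:**
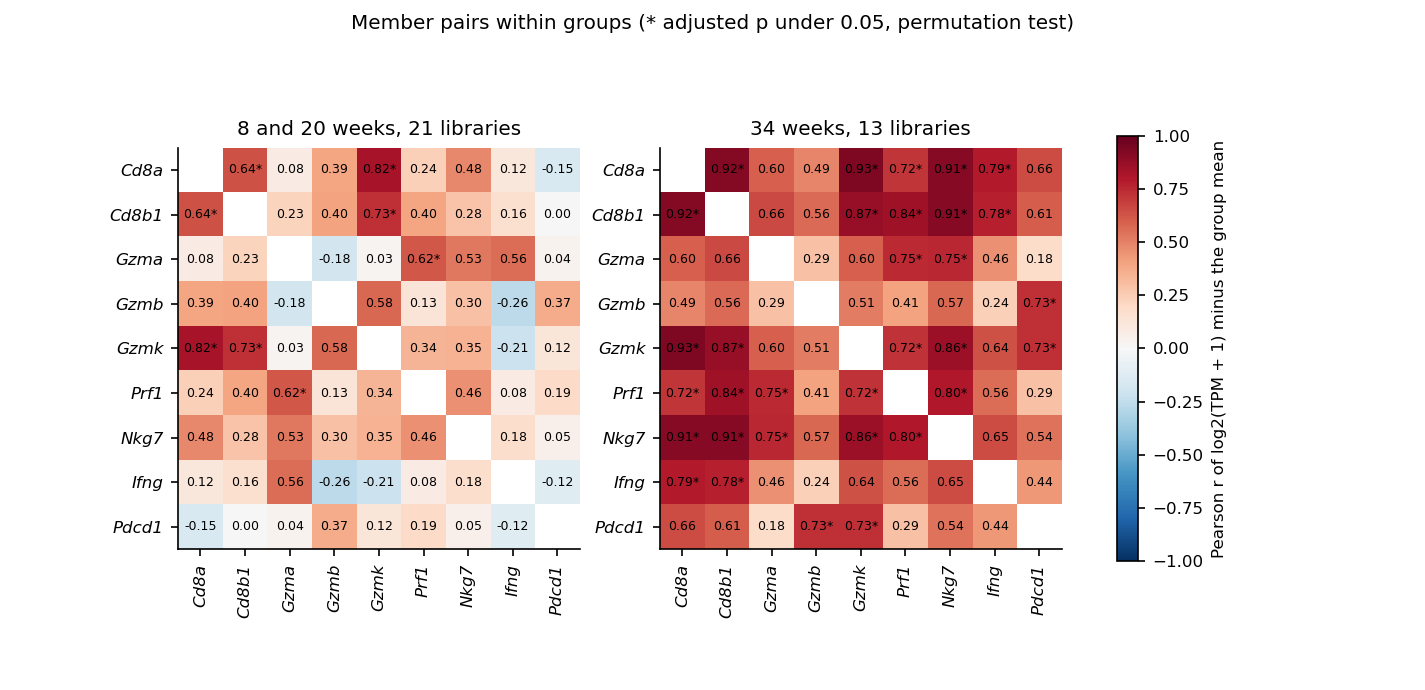
Pearson r between members over libraries after removal of group means, at 8 and 20 weeks (left, 21 libraries) and at 34 weeks (right, 13 libraries); color runs from -1 (blue) to 1 (red), and stars mark an adjusted p under 0.05 (permutation test). Cd8a with Gzmk is the highest pair in both tables, at 0.82 and 0.93.

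Cd8a varied most closely with Gzmk. Their r was 0.82 at 8 and 20 weeks (rho 0.830, permutation test adjusted p = 0.00370) and 0.93 at 34 weeks (rho 0.940, adjusted p = 0.000720, permutation test). Without the 2 libraries farthest from the median of Cd8a, r was 0.829 and 0.943. Cd8b1 with Gzmk had r of 0.733 (rho 0.690, permutation test adjusted p = 0.0181) and 0.870 (rho 0.863, adjusted p = 0.00370, permutation test). Without the 2 libraries farthest from the median of Cd8b1, these were 0.580 and 0.788. Cd8a with Cd8b1 had r of 0.639 (rho 0.610, permutation test adjusted p = 0.0366) and 0.917 (rho 0.929, adjusted p = 0.00168, permutation test).

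Another pair was formed by Gzma and Prf1, with r of 0.621 at 8 and 20 weeks (rho 0.648, permutation test adjusted p = 0.0336) and 0.749 at 34 weeks (permutation test adjusted p = 0.0307), where rho was 0.659 and did not pass (permutation test adjusted p = 0.0843), and r was 0.60 and 0.518 without the 2 libraries farthest in Gzma. Gzma and Gzmb had r of -0.184 (rho 0.0909, permutation test adjusted p = 0.654) and 0.29 (rho 0.0989, permutation test adjusted p = 0.520). Gzma and Gzmk, neighbors on chromosome 13, had r of 0.0297 at 8 and 20 weeks (rho 0.00649, permutation test adjusted p = 0.934) and 0.599 at 34 weeks (rho 0.478, permutation test adjusted p = 0.122). Without the libraries that stood apart, 2 of the pairs passed at 8 and 20 weeks and 7 at 34 weeks, and Cd8a with Gzmk passed in both (r 0.830 and 0.909), while Gzma with Prf1 passed in neither.

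The genes whose pattern was most like the mean of the 9 members within groups were Sh2d1a, Lck, Bcl11b, Txk, Klra4, Ptprcap, Ms4a4b and Ccl5. They were ranked by the lower of their Pearson r in the 2 tables, over 21 and 13 libraries, among 13933 genes. Sh2d1a, which encodes the adaptor SAP of T and NK cells, had r of 0.783 and 0.866. Lck, the kinase of the CD8 and CD4 co-receptors, had 0.711 and 0.925. Ccl5, a chemokine of effector T cells, had 0.636 and 0.965. These are descriptions over libraries that share their content of lymphocyte RNA. Klra4 belongs to a family of near-identical receptors, and its level is uncertain for that reason.

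Genes that act with the members were grouped in lists, and each gene was tested in the same fits. On HFD at 20 weeks most calls in lymphocyte lists were lower while Gzmb was higher. Of 11 NK cell receptors tested, 4 were lower and 0 higher (4.99% of all genes were called lower). Klrg1, an inhibitory receptor of mature effector cells, was the largest of them at -1.77 (SE 0.28, limma adjusted p = 0.000334), with a mean of 1.40 TPM among HFD libraries and 7.80 TPM among CHOW libraries. Klrd1, the CD94 chain of NK receptors, was at -0.98 (SE 0.28, limma adjusted p = 0.0248), and Cd244a and Klrc2 fell by 1.18 and 0.63. Of 15 genes of the T cell receptor and its signalling, 2 were lower and 0 higher, and Trac, the alpha chain constant gene, was at -0.73 (SE 0.23, limma adjusted p = 0.0389), a call lost with no filter and kept in 4 of 11 fits without 1 library. The call of Klrc2 was lost with no filter too and kept in 5 of 11.

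Of 5 CD4 and regulatory T cell markers 3 were lower. Foxp3, the transcription factor of regulatory T cells, was at 3.49 TPM on CHOW and 0.670 TPM on HFD (log2 fold change -1.42, SE 0.26, limma adjusted p = 0.00144), and Il2ra, their high-affinity interleukin 2 receptor chain, fell by 1.76. Of 8 PD-1 ligands and other inhibitory receptors 3 were lower, Btla, Ctla4 and Cd274, the last of which encodes the PD-1 ligand PD-L1, at -0.67 (SE 0.15, limma adjusted p = 0.00587). The call of Ctla4 was kept in 6 of 11 fits without 1 library. None of the 5 B cell markers and none of the 7 tested chemokine genes of effector lymphocytes passed at 20 weeks (limma).

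**Figure D5:**
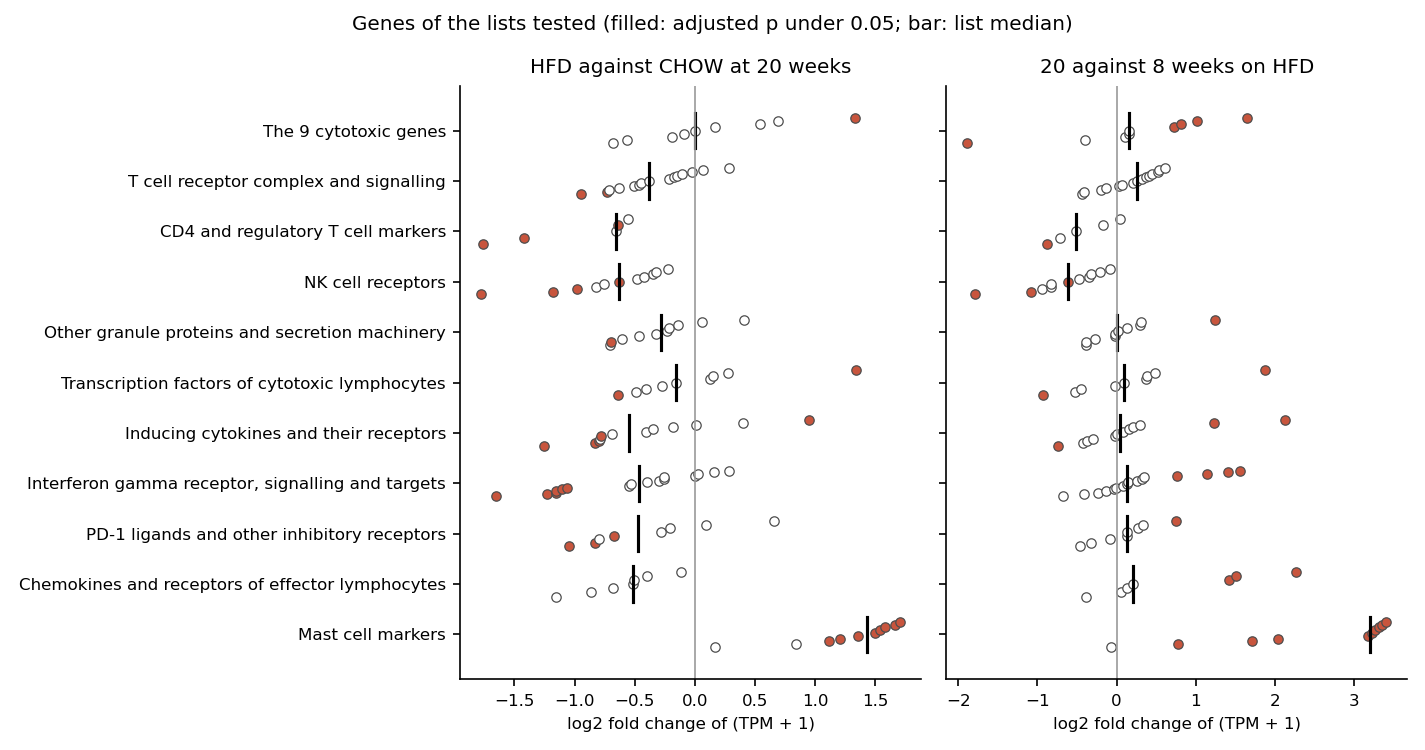
Log2 fold changes of (TPM + 1) of single genes in lists around the 9 cytotoxic genes, HFD against CHOW at 20 weeks (left) and 20 against 8 weeks on HFD (right); filled points have an adjusted p under 0.05 (limma) and bars are list medians. At 20 weeks the NK cell receptor median is -0.63 and the mast cell median 1.43.

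Of 16 genes of the interferon gamma receptor, its signalling and its targets, 6 were lower on HFD at 20 weeks and 0 higher, with a list median of -0.46 beside 0.08 for all genes. They were Gbp2, Gbp3, Irgm2, Igtp, Iigp1 and Cxcl10. In fits without 1 library Igtp was kept in 9 of 11, and Iigp1 and Cxcl10 each in 6 of 11. Iigp1 was also lost without the libraries that stood apart, and Cxcl10 with no filter and with the 2 compared groups alone. The guanylate binding protein gene Gbp2 averaged 87.3 TPM in HFD and 288 TPM in CHOW libraries (log2 fold change -1.66, SE 0.31, limma adjusted p = 0.00156). Ifng itself had a log2 fold change of -0.0019 in that comparison, as given above.

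Of the 12 cytokines that induce cytotoxic cells and their receptors, 4 were lower on HFD at 20 weeks (Il18rap, Il18r1, Il2rb and Il18) and 1 was higher. That was Il15, which sustains NK cells and memory CD8+ T cells, at 0.95 (SE 0.23, limma adjusted p = 0.00983). Among 9 tested transcription factors, Prdm1 (Blimp-1, of effector cells but also of other leukocytes) was higher by 1.34 (SE 0.36, limma adjusted p = 0.0181) and Hopx lower by 0.64 on the log2 scale. Of 10 tested granule and secretion genes, 1 was lower, Rab27a, which docks granules, at -0.70 (SE 0.18, limma adjusted p = 0.0166), and of 4 death ligands and receptors 1 was lower, Fas, at -1.17 (SE 0.20, limma adjusted p = 0.000676).

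Macrophage, red cell and adipocyte RNA differed by diet at 20 weeks too. Of 5 macrophage markers 2 were higher (Adgre1 and Cd68), and their sum ran from 1586 to 2621 TPM on HFD and from 756 to 1588 TPM on CHOW. All 4 hemoglobin genes and 5 of 10 adipocyte markers were lower. The 8 germ cell markers had a median log2 fold change of 3.27 at 20 weeks and 3.39 at 34 weeks (6 tested), without a gene that passed limma, and the median of their summed level at 20 weeks was 45.8 TPM in CHOW and 1279 TPM in HFD libraries, against 32.3 and 212 TPM at 34 weeks. Of 10 naive T cell and lymph node markers 3 were lower, among them the chemokine genes Ccl19 and Cxcl13, and the sum of the list ran from 45 to 73.2 TPM on HFD and from 73.9 to 374 TPM on CHOW. Ptprc, the leukocyte marker CD45, differed by 0.11 and did not pass. The part of these other cells in the results above was not tested. With the adipocyte score as a covariate 50 of the 53 list gene calls at 20 weeks were lost, whereas Gzmb passed (1.26, limma adjusted p = 0.0391). The lost calls include 5 adipocyte markers that are part of the score, so their loss is no separate result. Among all genes the calls fell from 2405 to 174 with that covariate. The score is the mean log2(TPM + 1) of the 10 adipocyte markers. It was 4.02 ± 0.25 on HFD and 4.82 ± 0.28 on CHOW at 20 weeks (SD), so this fit cannot fully part it from diet.

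From 8 to 20 weeks on HFD, genes beside the members moved both ways. Chemokine genes of effector lymphocytes rose in 3 of 7, with Ccl5 at 76.7 TPM at 8 weeks and 228 TPM at 20 weeks (log2 fold change 1.51, SE 0.25, limma adjusted p = 0.000644), and with Ccl3 and Ccl4. On CHOW the same 3 genes rose as well, Ccl5 by 1.61 (SE 0.29, limma adjusted p = 0.0141). Interferon gamma targets and signalling genes rose in 4 of 16 on HFD (Irf1, Gbp5, Cxcl10 and Jak2), and Il12b and Il15ra rose by 2.12 and 1.24. On CHOW, Gbp5, Cxcl10, Il12b and Il15ra rose as well, by 1.87, 2.59, 1.80 and 1.86. Of these CHOW calls, that of Il12b was kept under 6 of 9 alternatives and in 3 of 9 fits without 1 library. That of Il15ra was kept under 7 of 9 and in 5 of 9, while Gbp5 and Cxcl10 passed in all 9 fits without 1 library. On HFD the call of Jak2 was lost under 5 of 9 alternatives and kept in 3 of 12 fits without 1 library, and that of Cxcl10 was lost under 4 of 9. NK cell receptors fell in 3 of 11, with Cd226, an activating receptor, at -1.79 (SE 0.25, limma adjusted p = 9.18e-05), and with Klrg1 and Klri2. Klri2 was lost under 5 of 9 alternatives and kept in 1 of 12 fits without 1 library, and 29 of the 40 list gene calls over this time, Klrg1 among them, were lost with the adipocyte covariate. Those 29 include 6 adipocyte markers that are part of the score. Among all genes the calls over this time fell from 1475 to 206 with that covariate. No T cell receptor gene of 15 passed over this time on HFD (limma), with a list median of 0.25. Cd8a and Cd8b1 passed at 0.73 and 0.81, calls kept in only 3 and 4 of 12 fits without 1 library. Whether their change differs from that of the T cell receptor genes was not tested.

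In the interaction, where Gzmb passed, 6 of the 10 mast cell markers passed in the same direction and 0 in the other (0.161% of all genes were called upward). Their list median was 2.54 beside 0.18 for all genes. Tpsab1, Tpsb2 and Mcpt4 were kept in 21, 21 and 20 of 21 fits without 1 library, and Cpa3, Fcer1a and Cma1 in 12, 6 and 6. Foxp3 and Klrg1 passed in the opposite direction to Gzmb, each at -1.93 (limma adjusted p of 0.0308 and 0.0391). Foxp3 was lost under 2 of 8 alternatives and kept in 9 of 21 fits without 1 library, and Klrg1 was lost under 3 of 8 and kept in 6 of 21. At 34 weeks no gene of the lymphocyte effector lists passed limma. Among the other lists, the B cell gene Cd79a was higher on HFD by 0.89 (SE 0.16, limma adjusted p = 0.0461) and 4 of 10 mast cell genes were higher, Ms4a2, Mcpt4, Cma1 and Cpa3. Cd79a was lost under 7 of 8 alternatives, all 5 calls were lost with the adipocyte covariate and without the CHOW libraries that stood apart, and each was kept in only 2 or 3 of 13 fits without 1 library. With that covariate, and without those CHOW libraries, 0 of all genes passed. At 8 weeks no gene of any list passed.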

How the data were processed

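The authors trimmed the reads with Trimmomatic, checked them with FastQC and MultiQC and quantified gencode M10 mouse transcripts (mm10) with Salmon. They deposited gene-level TPM as 2 tables, 1 for 8 and 20 weeks (21 libraries) and 1 for 34 weeks (13 libraries). DESeq2, which the authors ran on counts, was not used here, and versions of the authors' tools were not given in the sources used here. Libraries were stranded mRNA libraries. TPM keeps no depth, so counting error is unknown and the number of libraries limits the precision.

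Symbols were matched from gencode M21 (31791 of 32098 gene IDs). A gene was tested if 4 libraries (8 and 20 weeks) or 6 libraries (34 weeks) reached 1 TPM. Tests were made on log2(TPM + 1), a scale that understates the change of low genes, with limma 3.58.1 in R 4.3.3 (1 mean per group, moderated with trend, Benjamini-Hochberg threshold 0.05). The tables were fitted apart, so 34 weeks was not tested against earlier times. The fit was tested on simulated data. Ratios were tested by exact permutation and pairs by 100000 permutations within groups (numpy 2.4.6, scipy 1.17.1, pandas 2.3.3). Promoters came from RefSeq.

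The members and gene lists were chosen with earlier results of these data known, and 3 lists (mast cell, plasmacytoid dendritic cell and gamma delta T cell receptor genes) were added after values had been seen. All 9 members are named. Of the other lists, genes past the threshold could be named, up to 6 for each list and comparison in order of adjusted p, and, where none passed, up to 3 by mean TPM. The genes most like the members were the 8 with the highest r, ranked by the lower r of the 2 tables, and markers of libraries that stood apart were given as sums. Alternatives were another pseudocount, no filter, other scalings, quality weights, a replicate block, an adipocyte covariate, the 2 compared groups alone, and leaving out libraries, of which the fit without libraries rich in germ cell RNA was chosen after seeing the data. Single values of some listed genes are not reported here.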

Additional observations from a re-analysis of the deposited data

Results flagged for a closer look

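Within 54 groups of member values, 6 held a library farther from its neighbor than Dixon's 95% limit allows, and chance gives about 5% of groups. In CHOW 8 week libraries, Gzma was highest in replicate 3 at 15.2 TPM (next 11.2 TPM) and Nkg7 was lowest in replicate 4 at 12.0 TPM (next 15.2 TPM). In CHOW 20 week replicate 5, Gzmb was at 11.1 TPM (next 7.10 TPM) and Nkg7 at 26.7 TPM (next 15.7 TPM). Ifng was highest in HFD 34 week replicate 4 at 11.4 TPM (next 4.6 TPM), and Pdcd1 in HFD 20 week replicate 6 at 12.0 TPM (next 7.55 TPM).

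The effect of HFD on Gzmb differed between 8 and 20 weeks by 1.52 on the log2 scale (limma adjusted p = 0.0308 for the interaction). That call was kept in only 9 of 21 fits without 1 library. It was lost with no filter, median-ratio scaling, quantile normalization or the replicate block.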

How the results depend on the processing

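Of the values above, Gzmb at 20 weeks passed under all alternatives run, with log2 fold changes from 1.14 to 1.66 and limma adjusted p from 1.22e-05 to 0.0391. Called members at 20 weeks numbered 2 under quantile normalization (with Gzma), 2 with a replicate block (with Pdcd1), 2 without the libraries that stood apart (with Gzmk), 2 without those rich in germ cell RNA (with Gzma) and 5 with quality weights, against 1, and 1 to 2 when 1 library was left out. At 34 weeks quality weights gave 1 (Gzmb) and leaving out a library 0 to 1. On CHOW over time quality weights gave 1 (Pdcd1). On HFD over time there were 3 with a pseudocount of 0.1 TPM, no filter, median-ratio or quantile scaling or without the libraries that stood apart or those rich in germ cell RNA, 2 with the adipocyte covariate (Gzmk at 0.76, limma adjusted p = 0.319), and 3 to 5 without 1 library, against 5. The interaction had 0 with no filter, median-ratio scaling, quantile normalization or the block, and 0 to 1 without 1 library. Passing ratios numbered 0 to 3 without 1 library, and passing pairs 9 without the libraries that stood apart, against 20. The cause was not tested.

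Same-numbered libraries correlated over 0.1 in 2 of 4, 1 of 5, 3 of 6, 0 of 4 and 4 of 6 pairs of the 5 group pairs. The highest r, 0.404, was between replicates 4 of HFD at 8 and 20 weeks. Differently numbered libraries were not compared, so whether same-numbered ones share more than a number was not tested. The labels name no pairing. With the block, 4 members passed on HFD over time (without Cd8a).

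Signs that turned belong to values that did not pass. At 8 weeks these were Cd8b1 (0.087 with pseudocount 0.1 TPM, 0.018 with median-ratio scaling), Gzmk (0.079, pseudocount), Nkg7 (0.059 median-ratio, 0.039 quantile, 0.032 weights, 0.13 adipocyte covariate, 0.15 without the libraries that stood apart, 0.0062 without those rich in germ cell RNA) and Pdcd1 (-0.013 pseudocount, -0.0025 without those rich in germ cell RNA, -0.26 replicate block, -0.13 covariate). At 20 weeks they were Nkg7 (0.089 covariate, 0.025 without those libraries) and Ifng (0.058 block, 0.59 covariate). At 34 weeks they were Cd8b1 (-0.037 weights, -0.13 covariate, -0.060 without those libraries) and Prf1 (-0.10 quantile, -0.22 weights, -0.22 covariate, -0.14 without those libraries). Over time they were Gzmk on CHOW (-0.021 covariate), and on HFD Nkg7 (-0.045 quantile) and Ifng (-0.018 quantile, -0.10 weights, -0.018 without those libraries, -0.48 without those rich in germ cell RNA). Ratios with a pseudocount of 0.1 TPM gave 0.043 for Cd8b1/Cd3e at 34 weeks, and -0.11 for Cd8a/Cd4 and -0.011 for Nkg7/Cd3e at 8 weeks. In the fits without 1 library that had the lowest and the highest adjusted p, the values were -0.41 and 0.0094 for Cd8b1 and -0.20 and -0.0025 for Pdcd1 at 8 weeks, -0.31 and 0.0057 for Ifng at 20 weeks, and -0.20 and 0.019 for Nkg7 in the interaction. On CHOW over time they were -0.31 and 0.010 for Cd8a, 0.24 and -0.015 for Gzmb, 0.35 and -0.012 for Gzmk and 0.18 and -0.024 for Nkg7.

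Genes called at 20 weeks numbered 2405 (1566 higher, 839 lower), 5092 with quality weights, 915 without libraries rich in germ cell RNA and 174 with the covariate (40.8% higher), and 47.1% were higher under quantile normalization. On HFD over time 1475 were called (1029 higher, 446 lower), 2427 with median-ratio scaling (58.8% higher), 2755 with quantile normalization (40.8% higher), 206 with the covariate, 693 without libraries rich in germ cell RNA and 866 with the 2 groups alone. In the comparisons with few calls the counts ran from 0 (covariate) to 209 (weights) against 4 at 8 weeks, from 49 (no filter) to 1659 (weights) against 103 on CHOW over time, and from 32 (no filter or block) to 400 (weights) against 50 in the interaction. At 34 weeks 34 became 294 with weights, 19 with quantile normalization, 7 with no filter and 0 with the pseudocount, block, covariate or without the libraries that stood apart. Quantile normalization moved the median of all genes from 0.0752 to -0.050 at 20 weeks, from 0.0893 to -0.064 on HFD over time and from 0.181 to -0.021 in the interaction, and median-ratio scaling moved the last to 0.031.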

Other observations

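Small lists of other lymphoid cells were also tested at 20 weeks. Of 4 plasmacytoid dendritic cell markers 1 was lower on HFD, Siglech, at -1.83. Of 3 gamma delta T cell receptor genes 1 was lower, the delta chain constant gene Trdc, at -0.58, a call kept in 2 of 11 fits without 1 library and lost with the adipocyte covariate and without the libraries that stood apart. Both lists were added after values had been seen.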
